A study of Mus musculus with 12 samples.

Results

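Contacts between the endoplasmic reticulum (ER) and mitochondria were examined through 8 genes, Vapb, Vapa, Rmdn3, Pacs2, Itpr1, Vdac1, Bcap31 and Pdzd8, chosen by name and matched by mouse symbol to 8 of the 49548 Ensembl identifiers in the count files. RNA was sequenced from the lumbar spinal cord, the segment that innervates the hind limbs, of 30-day-old mice, 8 of them MFN2 and 4 WT, with no treatment and with 1 library per mouse. MFN2 mice, labelled CMT2A, are hemizygous MitoCharc1 animals of a B6;D2 background that carry the transgene of line L51Ugfm. In them the rat Eno2 promoter, which acts mainly in neurons, drives human MFN2 with the R94Q change, and both mouse copies of Mfn2 are still present. WT mice carry no transgene and are labelled C57BL/6, while the study's methods describe WT littermates. The transgene is therefore active in only some of the cells whose RNA was pooled, and the whole-tissue values average over all of them. Total counts ranged from 19359454 to 26738930 in MFN2 libraries and from 19453238 to 23564568 in WT libraries. The question was whether RNA of the contact genes differed between genotypes, since MFN2 is itself a protein of the outer mitochondrial membrane that has been placed at these contacts.

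At such contacts the ER lies close to the outer mitochondrial membrane and is held there by pairs of proteins, one on each side. VAPB and VAPA are ER membrane receptors that bind partners on other organelles, and RMDN3, also called PTPIP51, is their partner on the outer mitochondrial membrane. ITPR1, an IP3 receptor, releases calcium from the ER, and VDAC1, the main channel of the outer membrane, passes it on toward the mitochondrial matrix. PACS2 is a sorting protein needed for the integrity of the contact, BCAP31 is an ER cargo receptor that binds FIS1 on mitochondria, and PDZD8 is an ER protein that tethers the membranes and transfers lipids. Human VAPB mutations cause a form of motor neuron disease, and ITPR1 mutations cause spinocerebellar ataxia.

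The promoters of the genes that the comparisons turn on are shown first, because Vapb and Vapa encode closely related receptors of which Vapb was called in 1 comparison and Vapa in none, and because Vdac1 and Pacs2 were the other members called. The windows run from 250 bases before to 50 bases after a RefSeq transcription start on GRCm38.p6, 300 bases in all, and 7 of the 8 members, all but Itpr1, matched an entry. They are written 5′ to 3′ on the strand of the gene. Capitals mark matches on either strand to 6 motifs. They are the 10-base NRF1 motif, in which any base may stand at the sixth position of the matches spelled out after the windows, the cAMP response element (CRE) TGACGTCA, the E-box with the letters CACGTG, the CCAAT box, and the GC box with the letters GGGCGG. The last is the ER stress response element (ERSE), which begins with a CCAAT box and ends, 9 bases later, with the letters CCACG. The windows lie at chr2:173737321-173737620 on the plus strand for Vapb, chr17:65613506-65613805 on the minus strand for Vapa, chr12:113014258-113014557 on the plus strand for Pacs2 and chr11:52360601-52360900 on the plus strand for Vdac1.
Vapb: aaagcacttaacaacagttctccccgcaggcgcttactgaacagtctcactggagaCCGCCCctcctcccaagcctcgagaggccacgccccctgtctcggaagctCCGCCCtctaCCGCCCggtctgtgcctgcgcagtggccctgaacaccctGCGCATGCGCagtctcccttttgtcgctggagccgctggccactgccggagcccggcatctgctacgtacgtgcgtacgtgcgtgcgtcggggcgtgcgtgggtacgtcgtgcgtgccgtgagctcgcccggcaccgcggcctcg
Vapa: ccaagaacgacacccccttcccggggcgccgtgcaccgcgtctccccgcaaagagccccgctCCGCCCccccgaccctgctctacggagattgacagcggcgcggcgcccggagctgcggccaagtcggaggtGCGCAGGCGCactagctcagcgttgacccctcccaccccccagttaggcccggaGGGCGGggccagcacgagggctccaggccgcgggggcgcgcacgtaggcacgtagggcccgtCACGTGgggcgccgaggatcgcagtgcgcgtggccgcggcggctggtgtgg
Pacs2: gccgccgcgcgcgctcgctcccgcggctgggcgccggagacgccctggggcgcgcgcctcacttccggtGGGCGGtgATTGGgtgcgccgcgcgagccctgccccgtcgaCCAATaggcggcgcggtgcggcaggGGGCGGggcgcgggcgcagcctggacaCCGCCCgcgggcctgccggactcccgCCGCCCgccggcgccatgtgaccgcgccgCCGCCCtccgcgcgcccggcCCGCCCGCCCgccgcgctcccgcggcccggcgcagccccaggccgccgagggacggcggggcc
Vdac1: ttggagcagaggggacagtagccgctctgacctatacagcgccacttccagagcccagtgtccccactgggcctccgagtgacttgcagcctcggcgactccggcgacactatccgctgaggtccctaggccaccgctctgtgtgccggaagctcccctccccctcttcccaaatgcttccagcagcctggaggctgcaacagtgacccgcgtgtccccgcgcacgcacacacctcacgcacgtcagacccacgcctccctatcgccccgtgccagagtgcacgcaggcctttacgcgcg

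The Vapb window held the NRF1 motif as GCGCATGCGC, starting at base 156, and the Vapa window held it as GCGCAGGCGC, starting at base 134. Of the 32851 mouse promoter windows of this length, 4.6% held a match, and none of the windows of the other 5 members searched did. The Vapa window also held the E-box, found in 7.15% of all windows. GC boxes were found in 35.7% of all windows. Vapb had 3, Vapa 2 and Pacs2 7, of which the last 2 in the Pacs2 window overlap. Pacs2 also had 2 CCAAT matches, against 37.4% of all windows with at least 1. The printed Vdac1 window held none of these letters, and a further RefSeq start of Vdac1, with its window at chr11:52361347-52361646, had 3 GC boxes. Pdzd8, whose values in libraries 72 to 76 lay on the other side of the WT values from those of Vdac1, was the only one of the 7 members searched with the CRE, which 1.79% of windows held. The ERSE, present in 0.119% of all windows, was found in none of the windows of these 7 members. The GC content was 67.7% for Vapb, 75.3% for Vapa, 85.7% for Pacs2 and 66% for the first Vdac1 window, above the median of 52.7% over all windows. These matches describe letters in a window and were not tied to the RNA values by any test.

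The transcribed units are given on GRCm38 with GENCODE M21 annotation. Vapb lies on chromosome 2 from 173737511 to 173784336 on the plus strand, with 7131 bases in the union of its exons. Vapa lies on chromosome 17 from 65578327 to 65613555 on the minus strand, with 3492 exon bases. Rmdn3 lies on chromosome 2 from 119137001 to 119157034 on the minus strand, with 3537 exon bases. Pacs2 lies on chromosome 12 from 113014508 to 113074401 on the plus strand, with 6985 exon bases. Itpr1 spans chromosome 6 from 108213096 to 108551109 on the plus strand, with 18319 exon bases and 2 annotated antisense genes over its exons. Those 2 genes, Gm44101 and Gm44040, had 33 and 54 counts against 42359 for Itpr1. The strand setting of the counting is not stated, so reads of such overlapping genes cannot be told apart. Vdac1 lies on chromosome 11 from 52360860 to 52389397 on the plus strand, with 2620 exon bases, and its processed pseudogene Gm15502 had 5 counts against 57747. Bcap31 lies on chromosome X from 73686178 to 73716175 on the minus strand, with 1219 exon bases. Pdzd8 lies on chromosome 19 from 59297178 to 59345780 on the minus strand, with 5982 exon bases.

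Library 43, labelled as an MFN2 spinal cord, stood apart from the other 11 libraries. The first principal component, with 33.4% of the variance, placed it at 91.9 and the others between -23.1 and 0.68. The 10 forebrain markers summed to 4758 CPM, the count scaled to the effective library size, in library 43, against 142 to 209 in the other 7 MFN2 libraries and 112 to 144 in WT. All 10 were detected there, and Camk2a, a calcium-dependent kinase of forebrain neurons, was the most abundant at 1915 CPM. The 9 caudal Hox genes, which mark levels of the spinal cord, summed to 43.4 CPM in library 43 and to between 252 and 313 CPM in all other libraries, with Hoxb8 the most abundant. The motor neuron markers followed the Hox genes, at 35.4 CPM against 153 to 369. The other 11 libraries held the Hox and motor neuron markers of spinal cord, and library 43 went against its label. The Hox sum does not show that the libraries came from 1 level. Hoxd10, a gene of the lumbar level, was at 0.23 to 7.48 CPM in libraries 41, 45, 46, 47 and 76, at 3.09 CPM in library 43 and at 13.9 to 31.5 CPM in the remaining 6. The part of such level differences in the results was not tested. Log2 fold changes of the 8 genes that include it are given with and without it. Medians over genes, the values of Mfn2 and Itpr3, and log2 fold changes of other contact genes in libraries 41 to 43 include it.

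The library numbers fall in 2 ranges, and the labels do not say what the numbers stand for. WT libraries are 44 to 47, and MFN2 libraries are 41 to 43 and 72 to 76. The second principal component, with 25.3% of the variance, placed libraries 41 to 47 of both genotypes between 9.26 and 35.9 and libraries 72 to 76 between -35.6 and -21.0. Genotype was therefore compared over all libraries, and then separately for each set of MFN2 libraries against the same 4 WT libraries. In libraries 72 to 76 genotype and number range cannot be told apart. Xist, expressed from the inactive X, was at 0 to 0.27 CPM in libraries 41, 43 and 44 and at 257 to 401 CPM in the rest, so that all of 72 to 76 and 3 of 4 WT libraries expressed it. The part of Xist-linked differences in the results was not tested beyond the fits with Xist as a covariate and without library 44.

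Per length of the exon union, the level of the members in WT mice spanned more than 1 order of magnitude. Vdac1 had the highest mean, 85.7 ± 1.46 RPKM (CPM divided by exon length in kilobases; SD, n = 4), and Pacs2 followed at 82.5 ± 11.9 RPKM. Their WT ranges overlapped, and Vdac1 exceeded Pacs2 in 8 of 12 libraries. Bcap31 was next at 36.0 ± 2.49 RPKM, below Pacs2 in all 12 libraries. Pdzd8 at 30.7 ± 0.616 RPKM, Vapa at 30.3 ± 1.03 RPKM and Vapb at 29.1 ± 1.29 RPKM lay close together. The WT ranges of Pdzd8 and Vapa overlapped, as did those of Vapa and Vapb, although Vapa exceeded Vapb in 11 of 12 libraries. Rmdn3 stood lower at 15.9 ± 2.13 RPKM, and Itpr1 was lowest at 6.54 ± 0.183 RPKM, below Rmdn3 in 11 of 12 libraries. The exception was library 43, where Itpr1 reached 32.9 RPKM, above every other member except Vdac1. Scaled to the longest transcript instead of the exon union, Vdac1 stayed highest at 111 RPKM and Itpr1 lowest at 12.1 RPKM, a span under 1 order of magnitude. Rmdn3 then read 24.9 RPKM, and only Vapa and Pdzd8 changed places.

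**Figure D1:**
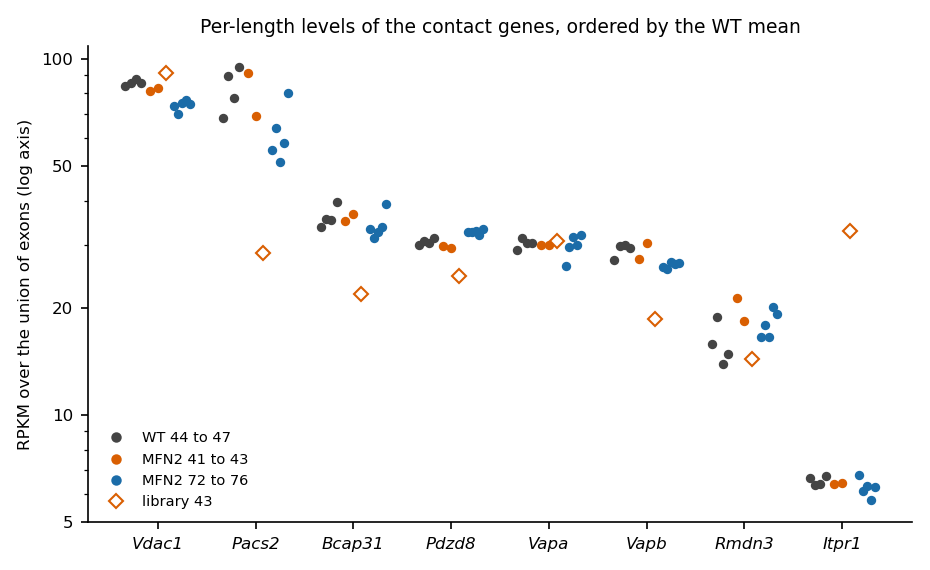
Per-length levels (RPKM over the union of exons, log axis) of the 8 contact genes in each of the 12 libraries, ordered by the WT mean, with WT in grey, MFN2 41 to 43 in orange, MFN2 72 to 76 in blue and library 43 as an open diamond. Vdac1 and Pacs2 lay highest and Itpr1 lowest, except in library 43, where Itpr1 was at 32.9 RPKM.

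Across all libraries, no contact gene passed the test between MFN2 and WT mice. None of the 8 members passed an FDR of 0.05 in edgeR's quasi-likelihood test, where 0% of the 15942 genes tested did so. None had an unadjusted p under 0.05, compared with 15.0% of all genes (2386 genes), and none had groups without overlap, compared with 2.04%. Without library 43, 19 genes and none of the members were called. The members' median log2 fold change was -0.07, and that of all genes was 0.00. The WT libraries are shared by the comparisons that follow, so these are not independent of each other. In whole tissue, fewer cells of a type and less RNA per cell cannot be told apart.

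**Figure D2:**
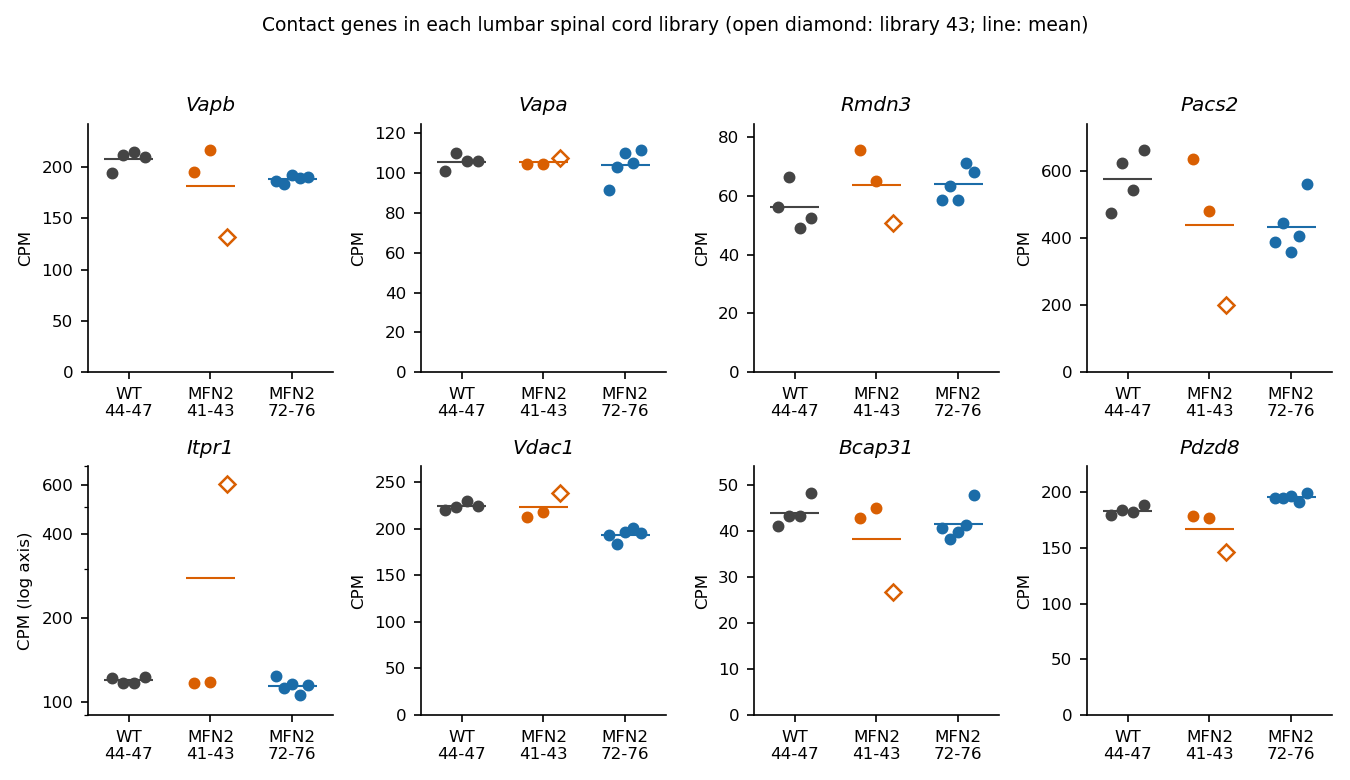
Level of each contact gene in CPM (vertical axes start at 0, except Itpr1 on a log axis) in every library, by WT 44 to 47, MFN2 41 to 43 and MFN2 72 to 76, with a line at each mean and library 43 as an open diamond. Vdac1 in libraries 72 to 76, at 183 to 201 CPM, lay below all 4 WT libraries, and library 43 was apart for Vapb, Pacs2, Itpr1, Bcap31 and Pdzd8.

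With library 43 included, the receptor Vapb varied more than Vapa. Vapb read 194, 212, 215 and 210 CPM in WT libraries 44 to 47. In MFN2 mice its lowest value was 132 CPM in library 43, the median 190 CPM and the highest 217 CPM in library 42. The MFN2 values reached from below all WT values to above all of them. The log2 fold change was -0.16 with a 95% interval of -0.38 to 0.05 (edgeR, FDR 0.434), and -0.10 without library 43 (FDR 0.279). Vapa averaged 105 ± 6.11 CPM in MFN2 mice (SD, n = 8) and 106 ± 3.59 CPM in WT mice (SD, n = 4). Its interval, -0.14 to 0.11 on the log2 scale, was the narrowest of the 8 (edgeR, FDR 0.924), and without library 43 the log2 fold change was -0.02 (FDR 0.875). The biological coefficient of variation of Vapa was 0.0955, lower than in all but 3.26% of the tested genes, whereas that of Vapb was 0.133. Both values include library 43. The SD of the MFN2 values was 12.8% of the mean for Vapb and 5.83% for Vapa. Without library 43 these were 5.63% and 6.22%, and in libraries 72 to 76 they were 1.79% and 7.62%. Over all libraries but 43 they were 6.14% and 5.19%. Per length, Vapb stood to Vapa at a ratio of 0.961 ± 0.0244 in WT mice (SD, n = 4) and 0.909 ± 0.0698 in MFN2 mice without library 43 (SD, n = 7), and at 0.603 in library 43.

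Rmdn3, the mitochondrial partner of the receptors, averaged 63.9 ± 7.87 CPM in MFN2 mice (SD, n = 8) and 56.1 ± 7.54 CPM in WT mice (SD, n = 4). Values from 50.9 to 75.6 CPM in MFN2 libraries enclosed most of the WT range of 49.1 to 66.6 CPM. The lowest of them was library 43. Without it the MFN2 values ran from 58.5 to 75.6 CPM, all above the WT median of 54.3 CPM. They still overlapped WT through library 45, at 66.6 CPM. The log2 fold change was 0.19 with an interval of -0.04 to 0.42 (edgeR, FDR 0.401), and 0.23 without library 43 (FDR 0.178).

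Pacs2, the sorting protein of the contact, varied widely within each genotype. WT libraries 44 to 47 read 475, 624, 544 and 662 CPM. The lowest MFN2 value was 199 CPM in library 43, the median 426 CPM and the highest 636 CPM in library 41, and the groups overlapped. Its log2 fold change of -0.41 had an interval of -0.90 to 0.09 (edgeR, FDR 0.393), and without library 43 it was -0.30 (FDR 0.268). The oligodendrocyte markers, 6 of 6 detected, summed to 8113 CPM in library 43, where Pacs2 was lowest. In WT libraries 44 to 47 they summed to 23420, 29426, 24316 and 30027 CPM, in the same order as Pacs2. In MFN2 libraries 72 to 76 they summed to 22329, 27228, 23463, 23846 and 33867 CPM, and library 76 was highest in both. The part of the oligodendrocyte content in the Pacs2 values was not tested.

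**Figure D3:**
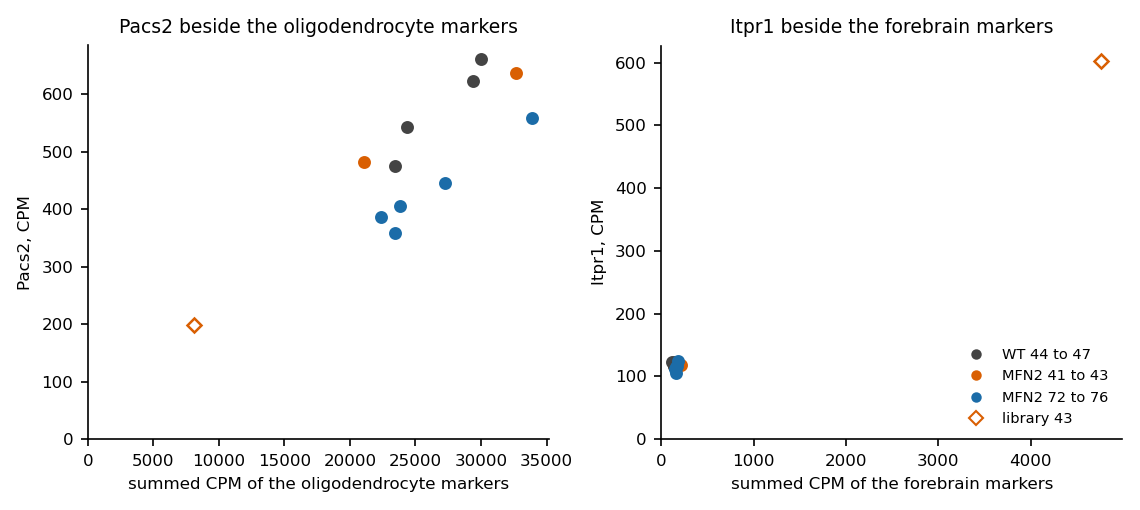
Pacs2 (left, CPM) against the summed CPM of 6 oligodendrocyte markers and Itpr1 (right, CPM) against the summed CPM of 10 forebrain markers, 1 point per library, with both axes from 0. Library 43 (open diamond) was lowest for Pacs2 and its markers and highest for Itpr1 and its markers, and of the blue MFN2 libraries 72 to 76, all but library 76 (560 CPM) lay below the WT libraries for Pacs2.

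Of the calcium pair, Itpr1 owed nearly all of its spread to a single library. It read 122, 117, 117 and 123 CPM in WT libraries 44 to 47. In MFN2 mice the lowest value was 106 CPM in library 75, the median 117 CPM and the highest 602 CPM in library 43. Outside library 43 the MFN2 values, 115.7 ± 5.79 CPM (SD, n = 7), overlapped the WT values, 119.9 ± 3.36 CPM (SD, n = 4). The log2 fold change of 0.56 had an interval of -0.48 to 1.60 (edgeR, FDR 0.570) and became -0.05 without library 43. Library 43 was also the library with 4758 CPM of forebrain markers. Among 7 cerebellar markers, since Itpr1 is abundant in Purkinje cells of the cerebellum, Gabra6 was at 0 and Pcp2 at 0.09 CPM in library 43. The cerebellar sum there was 145 CPM, with Calb1 the most abundant at 96.8 CPM, against 82.2 to 108 CPM elsewhere. The part of either tissue in the Itpr1 value of library 43 was not tested.

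Vdac1 averaged 205 ± 17.5 CPM in MFN2 mice (SD, n = 8) and 225 ± 3.82 CPM in WT mice (SD, n = 4). WT libraries 44 to 47 read 220, 224, 230 and 224 CPM. The lowest MFN2 value was 183 CPM in library 73, the median 199 CPM and the highest 239 CPM in library 43, which was the only MFN2 library above the WT range. The log2 fold change was -0.13 with an interval of -0.28 to 0.02 (edgeR, FDR 0.368), and -0.17 without library 43 (FDR 0.126).

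Neither Bcap31 nor Pdzd8 was called. Bcap31 averaged 40.2 ± 6.29 CPM in MFN2 mice (SD, n = 8) and 43.9 ± 3.04 CPM in WT mice (SD, n = 4), a log2 fold change of -0.12 (edgeR, FDR 0.614). Its lowest value was 26.6 CPM in library 43, and without that library the log2 fold change was -0.06 (FDR 0.657). Pdzd8 averaged 185 ± 17.6 CPM in MFN2 mice (SD, n = 8) and 184 ± 3.69 CPM in WT mice (SD, n = 4), a log2 fold change of 0.01 (edgeR, FDR 0.953) that turned to -0.13 with the range of library numbers as a covariate (FDR 0.375). Without library 43 it was 0.05 (FDR 0.540). Its MFN2 values lay on both sides of the WT range, which ran from 180 to 188 CPM. Libraries 41 to 43 were below it, at 179, 177 and 147 CPM, and libraries 72 to 76 were above it.

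MFN2 libraries 72 to 76 against WT gave calls for 3 of the 8 contact genes, all of them lower, where 23.5% of all tested genes were called and 12.2% were called lower. Vdac1, Vapb and Pacs2 were lower, and no member was called higher. Of all genes called, 48.28% were higher, and 67.59% were when libraries were scaled by size alone. The members' median log2 fold change was -0.07 and that of all genes 0.00. The count of members called is read against this background. Groups without overlap were found for Vdac1 and Vapb (lower, as for 10.2% of all genes) and Pdzd8 (higher, as for 9.43%), 3 of 8 in all compared with 19.7% of all genes.

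Vdac1, the outer membrane channel, read 193, 183, 196, 201 and 196 CPM in libraries 72 to 76, all below the lowest WT value of 220 CPM. It fell by 0.21 on the log2 scale, with a standard error of 0.04 (edgeR, FDR 0.00561). The call held in all 9 fits that left out 1 library, with FDR values from 0.00379 to 0.0162. Its relatives were not called. Vdac2 read 139.9 ± 2.45 CPM in these libraries (SD, n = 5) against 129 ± 6.62 CPM in WT (SD, n = 4), with a log2 fold change of 0.12 (edgeR, FDR 0.0801), and Vdac3 had a log2 fold change of 0.07 (FDR 0.414). Per length, the ratio of Vdac1 to Vdac2 was 3.17 ± 0.115 in WT mice (SD, n = 4) and 2.64 ± 0.218 in the MFN2 mice other than library 43 (SD, n = 7).

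Vapb read 186, 184, 192, 189 and 191 CPM in libraries 72 to 76, just below the lowest WT value of 194 CPM in library 44. It fell by 0.14 on the log2 scale, with a standard error of 0.04 (edgeR, FDR 0.0426). This call was close to the threshold. It was kept in 1 of 9 fits that left out a library, the one without WT library 44, with an FDR of 0.00942, and lost in the others, with FDR values up to 0.0947. Scaled by library size alone it had an FDR of 0.216. Vapa, with a log2 fold change of -0.02, was not called (edgeR, FDR 0.870).

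Pacs2 read 387, 446, 359, 406 and 560 CPM in libraries 72 to 76, and libraries 72 to 75 lay below all WT values. Library 76 lay within the WT range. Pacs2 fell by 0.41 on the log2 scale, with a standard error of 0.13 (edgeR, FDR 0.0492). The call was kept in 2 of 9 fits that left out a library, those without MFN2 library 76 (FDR 0.00495) and without WT library 44 (FDR 0.0269), and the highest FDR was 0.130. The oligodendrocyte marker sums of these libraries, 22329 to 33867 CPM, covered the WT sums of 23420 to 30027 CPM.

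Pdzd8 read 195, 195, 197, 191 and 199 CPM in libraries 72 to 76, all above the highest WT value of 188 CPM. The log2 fold change of 0.09, with an interval of 0.01 to 0.18, was not called in edgeR (FDR 0.107). It was called in DESeq2 (adjusted p 0.0341) and in edgeR with library-size scaling (FDR 0.0148). Rmdn3 had a log2 fold change of 0.19 (edgeR, FDR 0.133), which passed with library-size scaling (FDR 0.0431). Without WT library 45 it was 0.28 and passed (FDR 0.0331), and without WT library 46 it was 0.13 (FDR 0.356). Itpr1, at 114.8 ± 6.82 CPM (SD, n = 5), had a log2 fold change of -0.06 (edgeR, FDR 0.455), and Bcap31 one of -0.08 (FDR 0.464).

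**Figure D4:**
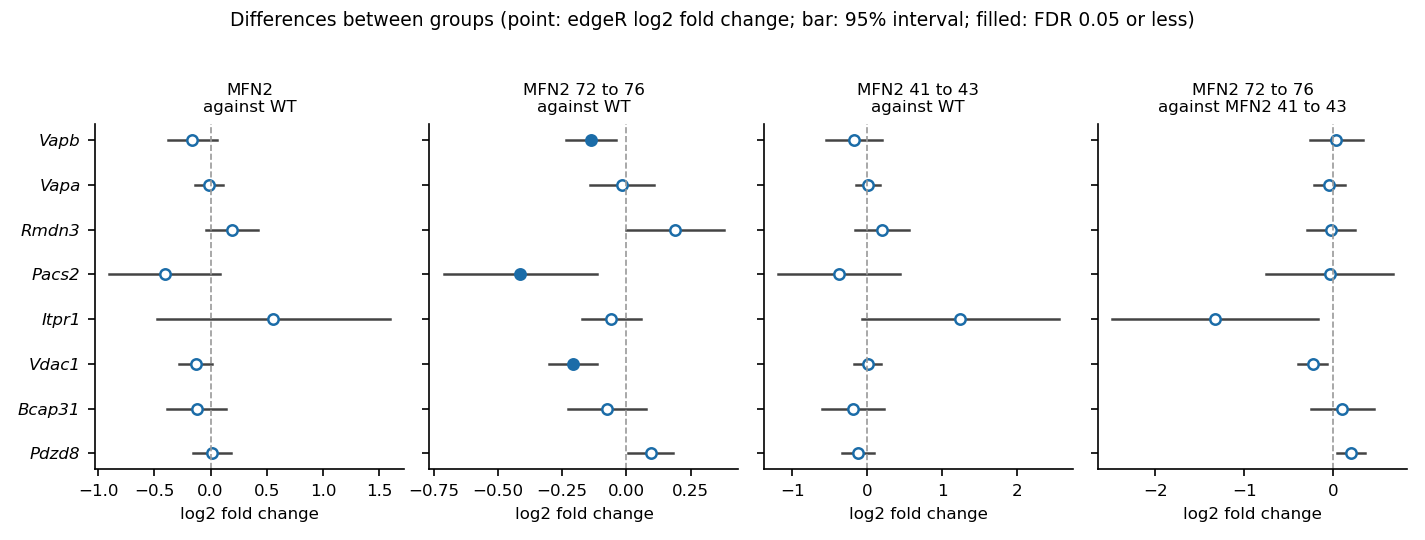
Log2 fold changes (points) with 95% intervals (bars) of the 8 contact genes in 4 comparisons, each on its own horizontal scale, with filled points at an FDR of 0.05 or less in edgeR. Filled points appear for Vapb, Pacs2 and Vdac1 in MFN2 72 to 76 against WT, and Itpr1 has wide intervals wherever library 43 enters.

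MFN2 libraries 41 to 43, numbered in 1 range with WT, gave no call among the 8 contact genes, and 0.00627% of all genes, a single gene, were called. None had an unadjusted p under 0.05, compared with 7.20% of all genes. The groups of Pdzd8 did not overlap (lower), as for 4.28% of genes. Vdac1 read 213, 218 and 239 CPM, with a log2 fold change of 0.01 (edgeR, FDR 0.979) and -0.05 without library 43. Vapb read 195, 217 and 132 CPM, with a log2 fold change of -0.18 (edgeR, FDR 0.708). Without library 43 it was 0.00 (edgeR, FDR 1.00), and that of Pacs2 moved from -0.38 to -0.03. The log2 fold change of Itpr1 was 1.24 with an interval of -0.07 to 2.55 (edgeR, FDR 0.635) and -0.01 without library 43. With libraries 41 and 42 alone, all 8 members had an FDR of at least 0.863 in edgeR.

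Within the MFN2 genotype, libraries 72 to 76 against 41 to 43 gave no call among the members either, where 2.08% of all genes (331) were called. Without library 43 there was again no call among the members, and 2357 genes were called. Vdac1 had no overlap between these sets, lower in 72 to 76, with a log2 fold change of -0.23 (edgeR, FDR 0.118). Without library 43 it was -0.16 (FDR 0.0757). DESeq2 called it (adjusted p 0.0237), as did the model of all 3 sets of libraries (edgeR, FDR 0.0469). Pdzd8 had no overlap in the opposite direction, at 0.20 (edgeR, FDR 0.134), and at 0.13 without library 43 (FDR 0.112). Groups without overlap were found for 8.59% of all genes in the direction of Vdac1 and for 9.62% in that of Pdzd8. The lower Vdac1 and higher Pdzd8 values lay in libraries 72 to 76 beside WT and beside MFN2 libraries alike, although within the MFN2 genotype only Vdac1 passed the threshold, and only in the alternatives named. Itpr1 had a log2 fold change of -1.33 (edgeR, FDR 0.160), and -0.05 without library 43.

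The other genes of the contact were taken from a list of 42 genes in 6 roles, of which 41 passed the filter on low counts. Over all libraries none was called (edgeR), 5 had an unadjusted p under 0.05, where 15.0% of all genes did, and the median log2 fold change was 0.00. In MFN2 libraries 72 to 76 against WT, 6 were called higher, where 11.4% of all genes were, and 5 lower, where 12.2% were. Their median was 0.02. Among the outer membrane tethers 1 of 6 was called, among calcium genes 4 of 9, among ER chaperones and oxidoreductases 3 of 4, among lipid enzymes 2 of 6, among actin, fission and autophagy genes 1 of 6, and among the VAP family and lipid transfer genes 0 of 10.

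Fis1, the mitochondrial receptor that binds BCAP31, had the lowest FDR of those that fell. It read 46.3 ± 1.05 CPM in libraries 72 to 76 (SD, n = 5) and 64.4 ± 6.40 CPM in WT (SD, n = 4), a log2 fold change of -0.47 (edgeR, FDR 0.000628), and no values overlapped. In libraries 41 to 43 it read 64.0, 57.2 and 47.3 CPM. Wfs1, an ER membrane protein involved in calcium balance, was at 35.3 ± 2.96 CPM (SD, n = 5) against 45.5 ± 3.48 CPM (SD, n = 4), a log2 fold change of -0.36 (edgeR, FDR 0.00492). Soat1, an enzyme that esterifies cholesterol, had a log2 fold change of -0.27 (FDR 0.0172). Of the genes that rose, Tmx1, an ER oxidoreductase, had a log2 fold change of 0.28 (edgeR, FDR 0.00815). Cisd2, an ER iron-sulfur protein, was at 44.5 ± 0.934 CPM (SD, n = 5) against 38.8 ± 0.982 CPM (SD, n = 4), a log2 fold change of 0.20 (edgeR, FDR 0.00898). Hspa9, the mitochondrial chaperone that links IP3 receptors to VDAC1, was at 315 ± 10.4 CPM (SD, n = 5) against 277 ± 12.5 CPM (SD, n = 4), a log2 fold change of 0.19 (edgeR, FDR 0.0146). In libraries 41 to 43 against WT, the log2 fold changes of Hspa9 (-0.11) and Wfs1 (0.15) had the opposite sign. Those of Soat1 (-0.11), Tmx1 (0.18) and Cisd2 (0.01) had the same sign, and none was called (edgeR).

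**Figure D5:**
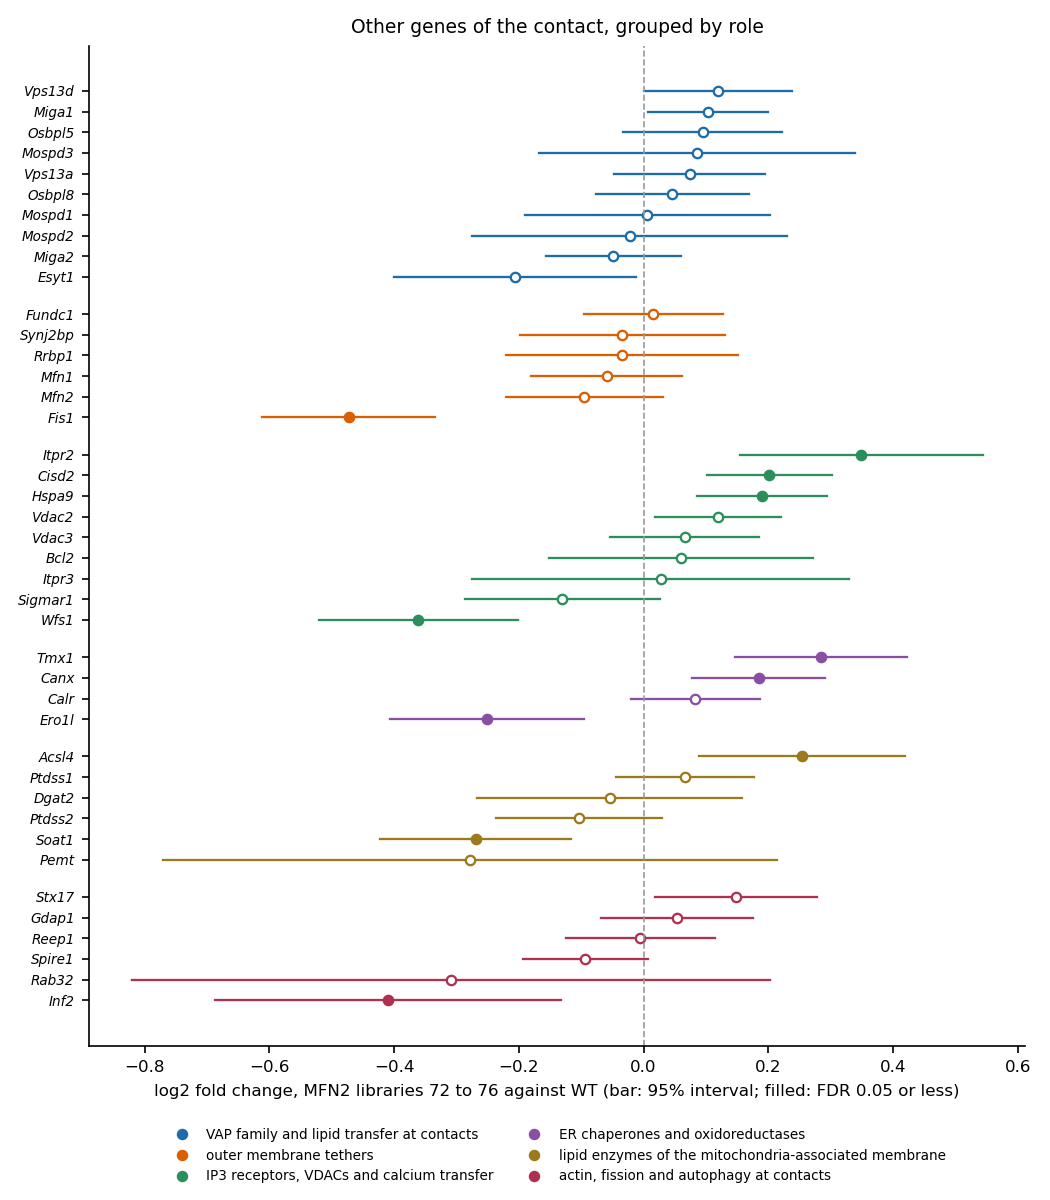
Log2 fold changes (points) with 95% intervals (bars) of 41 other contact genes in MFN2 libraries 72 to 76 against WT, coloured by role, with filled points at an FDR of 0.05 or less in edgeR. The 6 filled points to the right of 0 and 5 to the left are spread over 5 of the 6 roles, and Fis1 at -0.47 lies farthest left of the filled points.

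Mfn2, the mouse gene matching the transgene, was not called between genotypes. It averaged 206 ± 12.8 CPM in MFN2 mice (SD, n = 8) and 213 ± 15.1 CPM in WT mice (SD, n = 4), with a log2 fold change of -0.05 and an interval of -0.19 to 0.09 (edgeR, FDR 0.733). In libraries 72 to 76 the log2 fold change was -0.09 (FDR 0.259). The human transgene was not analysed here, so these counts do not check the labels. Within the MFN2 genotype, 1 other contact gene was called between number ranges, Itpr3, an IP3 receptor, in the direction taken by 0.947% of all genes. It read 15.6, 19.4 and 13.1 CPM in libraries 41 to 43 and 24.5 to 31.1 CPM in libraries 72 to 76, a log2 fold change of 0.70 (edgeR, FDR 0.0410). Without library 43, 5 of the 41 other contact genes were called, among the 2357 of 15942 genes called in all.

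The genes whose log2 CPM followed each member most closely were ranked by Pearson's r over the libraries, which share genotype, number range and cell content, so that r is a description. For Pacs2 the 3 highest over 12 libraries were Pllp (0.994), Sypl (0.992) and Tmbim1 (0.992), and over the 11 libraries without 43 Sypl (0.988), Gltp (0.987) and Tmbim1 (0.987). For Pdzd8, Rdx led both with 12 libraries (0.987) and with 11 (0.983). The leading genes of the other members changed with library 43. For Vdac1 they were Ndrg4 (0.960 over 12) and Cops8 (0.979 over 11), for Vapb Phlda3 (0.982 over 12) and Fam213b (0.972 over 11), and for Itpr1 Arhgap32 (0.997 over 12) and C530050E15Rik (0.906 over 11). Bcap31 went with Tex52 (0.978 over 12) and Ints4 (0.949 over 11). Vapa and Rmdn3 had the least close matches over 12 libraries, Rab5if (0.835) for Vapa and Dnajc17 (0.872) for Rmdn3. Over 11 libraries these were Pigp (0.905) and C77080 (0.946).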

How the data were processed

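RNA of the lumbar spinal cord of 8 MFN2 and 4 WT mice was prepared with a stranded kit and sequenced in paired-end mode. After trimming and STAR alignment to GRCm38.p6, the authors deposited raw counts of reads for every Ensembl gene, in 1 table per mouse. The counting tool and strand setting are not given in the sources used here. Genotypes came from the labels, and 0 per-sample columns were left unused. Symbols came from GENCODE M21, where Ero1a is listed as Ero1l.

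Genes above 1 CPM in at least 3 libraries (15942, 32.2%) entered edgeR 4.0.16 (R 4.3.3; TMM scaling, robust quasi-likelihood test in its legacy form), and p-values were adjusted by Benjamini-Hochberg over all of them, with calls at an FDR of 0.05. CPM and RPKM used TMM-scaled library sizes, and log2 CPM a prior count of 2. The test was checked on simulated counts. No pair of libraries held matching counts, and nothing states more than 1 mouse per library. Alternatives were no filter, DESeq2 1.42.0, other scalings, likelihood ratio testing, limma 3.58.1, covariates, 1 model of 3 library sets and each library left out.

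The 8 genes, the other contact genes and the markers were chosen with earlier results of these data known. Named were the members, Mfn2, the 3 lowest FDR in each direction among other contact genes called, and the 3 genes most like each member by r. Some marker lists are given only as sums, and some of their genes and one overlap between genes are not reported here.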

Additional observations from a re-analysis of the deposited data

Results flagged for a closer look

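Of 18 groups of 4 or 8 libraries examined, 5 had a library whose gap to its nearest neighbour took an unusually large part of the range of its group (Dixon's ratio, above its 95% critical value), where chance alone would mark about 1 group in 20, or 0.9 of these. Library 43 accounted for 4 of them, all in MFN2 mice. The ratio was 0.962 for Itpr1, where library 43 was highest at 602 CPM. It was 0.61 for Vapb at 132 CPM, 0.567 for Pdzd8 at 147 CPM and 0.549 for Bcap31 at 26.6 CPM, where library 43 was lowest. Vapa was marked in library 72, at 91.6 CPM, with a ratio of 0.585.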

How the results depend on the processing

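No paired analysis was possible because no number is shared between MFN2 and WT libraries. Over all libraries, DESeq2 called 200 genes, a likelihood ratio test 14 and Xist as a covariate 4, against 0, and no setting called a member. For MFN2 72 to 76 against WT, the call of Vdac1 was kept in every setting, while 1 member was called without the filter and 1 in the model of 3 library sets, which called 1224 genes and 3 other contact genes. Vapb had an FDR of 0.103 without the filter and 0.468 in that model, and Pacs2 0.0502 and 0.353 (0.0653 with library-size scaling). Library-size scaling moved higher calls from 48.28% to 67.59% there, and from 45.62% to 72.35% between the MFN2 sets. For MFN2 41 to 43 against WT, 0 genes were called without the filter and in the model of 3 sets, and 4 in DESeq2. Between the MFN2 sets, DESeq2 called 1775 genes, 1 member and 5 other contact genes, the model of 3 sets 1339, 1 and 5, and library-size scaling or no filter 2 other contact genes. The causes were not tested.

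Log2 fold changes of members also turned sign, none of them called. Over all libraries these were Itpr1 in DESeq2 (-0.042), Vapa with library-size scaling (0.036), and Pdzd8 with the number range (-0.13) or Xist (-0.0033) as a covariate. With library-size scaling, Vapa (0.048) and Itpr1 (0.0052) turned in 72 to 76 against WT, and Vapa (0.032), Rmdn3 (0.051) and Pacs2 (0.020) between the MFN2 sets, as did Rmdn3 in the model of 3 sets (0.0014). In 41 to 43 against WT, Vdac1 turned without the filter (-0.0058) and in the model of 3 sets (-0.0090), and Vapa in that model (-0.0019).

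With 1 library left out, genes called ranged from 0 to 19 over all libraries (19 without 43), from 2355 (without 45) to 4518 (without 44) for 72 to 76 against WT, from 0 to 2 for 41 to 43 against WT, and from 26 (without 74) to 2357 (without 43) between the MFN2 sets. Members called ranged from 1 to 3 for 72 to 76 against WT and were 0 otherwise. Other contact genes called ranged from 8 to 12 for 72 to 76 against WT, from 0 to 5 between the MFN2 sets, and were 0 otherwise. Leaving out 1 library, the log2 fold change over all libraries ran from -0.051 to 0.64 for Itpr1, from -0.0052 to 0.053 for Pdzd8 and from -0.034 to 0.013 for Vapa. For 72 to 76 against WT, that of Vapa ran from -0.043 to 0.025. For 41 to 43 against WT it ran from -0.33 to 0.012 for Bcap31, -0.011 to 1.61 for Itpr1, -0.0047 to 0.040 for Vapa, -0.33 to 0.00014 for Vapb and -0.048 to 0.045 for Vdac1. Between the MFN2 sets it ran from -0.088 to 0.24 for Bcap31, -0.38 to 0.33 for Pacs2, -0.15 to 0.13 for Rmdn3, -0.064 to 0.012 for Vapa and -0.14 to 0.18 for Vapb. Depth was at least 19359454 counts per library, and its effect on these results was not tested.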

Other observations

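Marker lists not set beside a member above were read as summed CPM. Neuron markers, led by Snap25, summed to 3360 CPM in library 43, 2617 to 3091 in the other MFN2 libraries and 2736 to 3195 in WT. Its genes did not move together in library 43, where Syt1 was at 1156 CPM against 111 to 234 elsewhere, while Snap25 (1239 CPM), Tubb3 (271 CPM) and Elavl3 (217 CPM) had their lowest values. Astrocyte markers, led by Slc1a2, summed to 4951 to 6364 CPM in MFN2 libraries 72 to 76 and to 6757 to 7732 CPM in WT, without overlap, and this difference was not tested. Microglial markers summed to 129 to 161 CPM in libraries 72 to 76 and 167 to 218 CPM in WT, also without overlap and not tested. Both sums stood apart in the libraries whose comparison with WT called Vdac1, Vapb, Pacs2 and 11 other contact genes, Fis1 and Hspa9 among them, and in which Pdzd8 did not overlap WT. Their part in those results was not tested. Schwann cell markers, with Pmp2 at 0 in 11 libraries, summed to 685 CPM in library 43 and to between 878 and 1852 CPM elsewhere.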
